A study of Mus musculus with 12 samples.

Results

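The transcripts described here belong to 9 genes that mark the 2 types of striatal medium spiny neuron, the projection neurons that make up most of the striatum. *Adora2a*, *Gpr6*, *Gpr52* and *Sp9* stand for the D2 type, and *Isl1*, *Ebf1*, *Sfxn1*, *Eya1* and *Slc35d3* for the D1 type. They were chosen by name as genes known to differ between the types, with the dopamine receptors and the neuropeptides left out. Earlier results of these data were known when they were chosen, so the counts below do not come from a blind choice. These 9 genes are among 52169 gene symbols in the count table, and 66 of its 189364 named transcripts are theirs. For each gene, values are those of whichever transcript had the most counts on average.

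RNA was sequenced from the striatum of female C57BL/6J mice, whose age is not given in the sources used here. All mice received desipramine (25 mg/kg) and 6-OHDA, a toxin taken up by catecholamine neurons, in the right medial forebrain bundle (1 µl at 3 µg/µl), and recovered for 2 weeks. All then received L-DOPA (10 mg/kg) with benserazide (7.5 mg/kg), once (acute) or daily for 9 days (chronic), and tissue was taken 1 hour after the last dose. The 12 libraries form 4 groups of 3: acute unlesioned, acute lesioned, chronic unlesioned and chronic lesioned striatum. No group without L-DOPA and none with a sham lesion is among these libraries, so the lesion and the response to L-DOPA in it cannot be told apart. Every lesion was in the right hemisphere, so the lesion and the side cannot be told apart either. Chronic libraries were taken after 9 daily doses, so repeated doses and a longer time since the lesion cannot be told apart. The design text counts 12 mice for the 12 libraries, whereas the study treats the unlesioned side as each mouse's own control. Per library, 87695043 to 173116525 counts fell on transcripts, and 18373807 to 36492574 of them on the representative transcripts of all genes. The 9 genes had between 71 counts (*Eya1*, chronic lesioned replicate 2) and 13909 counts (*Adora2a*, acute lesioned replicate 1) in a library. Levels are given as CPM, the counts relative to a library's TMM-scaled total. The 16 genes shared by both spiny neuron types, such as *Ppp1r1b* and *Bcl11b*, summed to between 2409 and 3529 CPM in every library, so spiny neuron RNA was present throughout. One library stood apart: chronic unlesioned replicate 2 held 3.18 CPM of *Folr1* and 2.62 CPM of *Kcnj13*, both genes of the choroid plexus, whereas no other library exceeded 0.139 and 0.037 CPM. In whole striatal tissue, fewer cells of a type and less RNA per cell cannot be told apart.

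Spiny neurons of the D1 type carry the dopamine D1 receptor, which raises cAMP, and project directly to the output nuclei of the basal ganglia. Those of the D2 type carry the D2 receptor, which lowers cAMP, and reach these nuclei through the external pallidum. When dopamine axons degenerate, as in Parkinson's disease, the D1 type becomes supersensitive to dopamine, and L-DOPA given day after day leads to dyskinesia.

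The first comparison was between the sides after acute L-DOPA. All 9 genes differed. The 5 D1-type genes were lower in the lesioned striatum, and 3 of the 4 D2-type genes were higher. *Gpr52* was the D2-type gene that was lower. The adjusted p of edgeR's quasi-likelihood test was below 0.05 for 9 of the 9 genes, whereas 12.9% of the 129674 transcripts tested were called, 6.85% as higher and 6.02% as lower. The members are given as 1 transcript per gene, and of the 20336 transcripts tested in that way 15.4% were called. Scaled to the genes shared by both spiny neuron types, which moved the median of all transcripts by 0.25, 30.0% of transcripts were called, 29.3% higher and 0.768% lower, and 6 of the 9 genes were, 3 higher (*Sp9*, *Gpr6* and *Adora2a*) and 3 lower (*Isl1*, *Ebf1* and *Slc35d3*). With the replicate number as a block 21.8% of transcripts and 9 of the 9 genes were called. The lesioned and unlesioned libraries did not overlap for any of the 9 genes, an order found for 32.6% of all transcripts tested. The median log2 fold change was -0.69 over the D1-type genes and 0.48 over the D2-type genes, against 0.0054 over all transcripts tested.

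Among the D2-type genes, *Sp9* rose most. It encodes a zinc finger transcription factor needed for the formation of D2-type neurons, and its main transcript lies on chromosome 2 of mm9 from 73109982 to 73115528 on the plus strand. It was at 5.81, 5.27 and 5.78 CPM in the unlesioned libraries and at 9.41, 10.6 and 10.7 CPM in the lesioned libraries. Every lesioned library lay far above every unlesioned library. The log2 fold change was 0.86 (standard error, SE, 0.072, adjusted p = 9.81e-06), a 1.82-fold rise. *Gpr6* encodes a receptor without an agreed ligand that raises cAMP on its own, and lies on chromosome 10 from 40789787 to 40792091 on the minus strand. Its levels were 23.1, 21.0 and 24.1 CPM in unlesioned and 33.7, 36.2 and 34.9 CPM in lesioned libraries, again with a wide gap between the groups. It rose by 0.62 on the log2 scale (SE 0.06, adjusted p = 6.32e-05), or 1.54-fold.

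*Adora2a*, on chromosome 10 from 74779688 to 74797533 on the plus strand, encodes the adenosine receptor of the striatum that raises cAMP in D2-type neurons. Its unlesioned libraries held 78.9, 71.6 and 97.5 CPM and its lesioned libraries 105, 101 and 104 CPM. The highest unlesioned library came close to the lowest lesioned one. The log2 fold change was 0.33 (SE 0.09, adjusted p = 0.0395). This call held without acute unlesioned replicate 3 (adjusted p = 0.00294) and was lost without any other of the 6 libraries, with adjusted p between 0.0640 and 0.147. It was also lost in the fit over all 12 libraries (adjusted p = 0.106), with the transcripts of each gene summed (0.0767), with a cortical marker score as a covariate (0.0788) and with the dependence on GC content and length taken out (log2 fold change 0.23, adjusted p = 0.0929), the last chosen after seeing the data.

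*Gpr52* encodes another receptor that raises cAMP, and is a gene of a single exon on chromosome 1 from 162506799 to 162507884 on the minus strand, inside *Rabgap1l* on the same strand. It was at 8.89, 9.45 and 9.71 CPM in unlesioned and at 6.72, 7.96 and 7.96 CPM in lesioned libraries. The lesioned libraries were all lower, by a narrow margin. The log2 fold change was -0.31 (SE 0.08, adjusted p = 0.0219), against -0.041 for *Rabgap1l* (adjusted p = 0.712). Without acute unlesioned replicate 2, acute unlesioned replicate 3 or acute lesioned replicate 1 its adjusted p was 0.0730, 0.0781 and 0.0611. Scaled to the shared spiny neuron genes, its log2 fold change was -0.061 (adjusted p = 0.641), and the call was also lost in the fit over all 12 libraries (0.104) and with transcripts summed (0.0658).

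Of the D1-type genes, *Slc35d3* fell most. It encodes a nucleotide sugar transporter family member that takes part in carrying the D1 receptor to the cell surface, and lies on chromosome 10 from 19567723 to 19571265 on the minus strand. Unlesioned libraries held 10.5, 9.93 and 12.4 CPM and lesioned libraries 3.20, 4.35 and 4.81 CPM. The gap between the groups was larger than the spread within either. It decreased by 1.41 on the log2 scale (SE 0.13, adjusted p = 2.10e-05), 2.67-fold. *Isl1* encodes a LIM homeodomain factor that D1-type neurons need in development and that cholinergic interneurons keep, and lies on chromosome 13 from 117088478 to 117099896 on the minus strand. It was at 3.25, 3.18 and 3.56 CPM without the lesion and at 1.87, 1.93 and 1.98 CPM with it, so that the lesioned libraries were both lower and closer to each other. Its log2 fold change was -0.78 (SE 0.09, adjusted p = 0.000131).

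*Ebf1*, on chromosome 11 from 44430819 to 44821593 on the plus strand, encodes a transcription factor of the D1 lineage that vascular mural cells also express. Its levels were 3.43, 4.01 and 3.88 CPM in unlesioned and 2.31, 2.49 and 2.21 CPM in lesioned libraries. The groups stood well apart, with a log2 fold change of -0.69 (SE 0.09, adjusted p = 0.000527). *Sfxn1* encodes a mitochondrial serine carrier and lies on chromosome 13 from 54167214 to 54203715 on the plus strand. It had 15.1, 17.1 and 14.2 CPM in unlesioned and 9.45, 12.1 and 11.2 CPM in lesioned libraries, all lower. The log2 fold change was -0.50 (SE 0.09, adjusted p = 0.00473), and -0.26 (adjusted p = 0.0729) when scaled to the shared spiny neuron genes.

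*Eya1*, the lowest of the 9 genes, encodes a phosphatase and transcriptional coactivator and lies on chromosome 1 from 14159035 to 14300281 on the minus strand. It was at 1.61, 1.25 and 1.43 CPM in unlesioned and at 1.10, 1.03 and 1.01 CPM in lesioned libraries. The lesioned libraries were lower, with little room between the groups. The log2 fold change was -0.45 (SE 0.12, adjusted p = 0.0314). The call was lost without acute unlesioned replicate 1 or 3 or acute lesioned replicate 2 or 3, with adjusted p of 0.126, 0.0780, 0.0869 and 0.0679, and also when scaled to the shared spiny neuron genes (log2 fold change -0.21, adjusted p = 0.300), with the cortical marker score as a covariate (0.183), in the fit over all 12 libraries (0.0724) and with DESeq2 (0.0609).

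**Figure D1:**
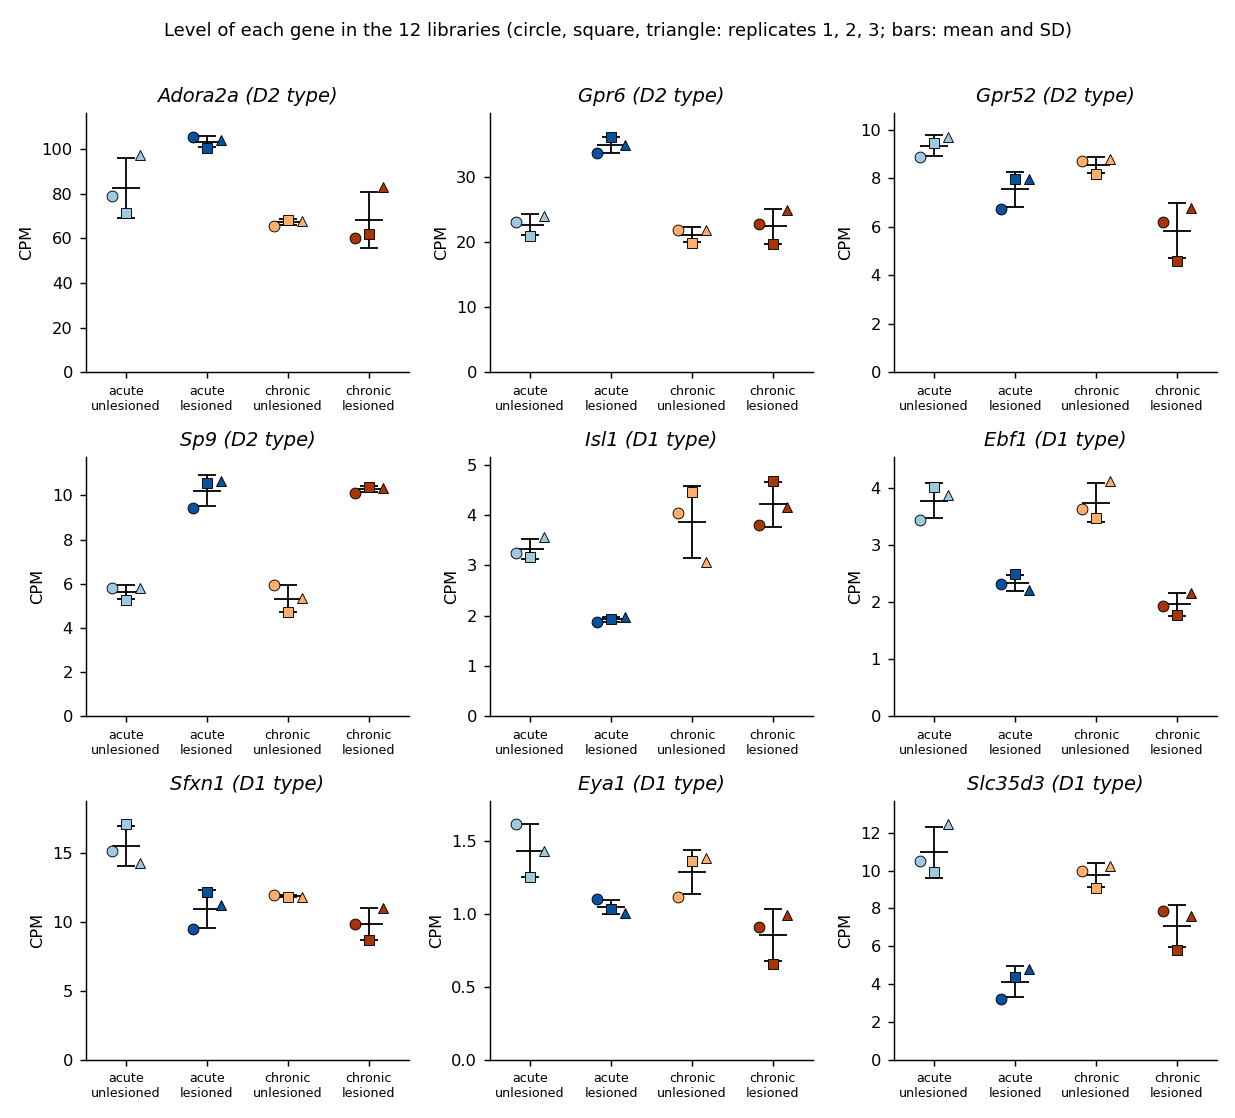
Level of each gene in CPM (y axis, from 0) in every library of the 4 groups (x axis), with replicates 1, 2 and 3 as circle, square and triangle and the mean and SD (n = 3) as bars. The 5 D1-type genes are lower in the acute lesioned than in the acute unlesioned libraries, *Isl1* is at 3.81 to 4.69 CPM in the chronic lesioned libraries, and *Sp9* is raised to 9.41 to 10.7 CPM in both lesioned groups.

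The next comparison was the same contrast after chronic L-DOPA, in other libraries. Here 4 genes were called, 1 higher and 3 lower: *Sp9*, *Ebf1*, *Gpr52* and *Slc35d3*. That is 4 of 9, with 12.0% of 127063 transcripts called, 7.71% higher and 4.33% lower, or 13.5% with 1 transcript per gene. Scaled to the shared genes, a shift of the median by 0.13, 8.16% were called, 7.28% higher and 0.885% lower, and 2 of the 9 genes. Lesioned and unlesioned libraries did not overlap for 6 of the 9 genes, against 30.8% of transcripts. With the replicate number as a block, 6 genes and 21.6% of transcripts were called. The block added *Eya1* and *Sfxn1*. Without chronic unlesioned replicate 2, the library high in choroid plexus genes, the 4 genes were called as before.

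*Sp9* was at 5.93, 4.69 and 5.33 CPM in the chronic unlesioned and at 10.1, 10.4 and 10.3 CPM in the chronic lesioned libraries. The lesioned libraries were nearly alike and all above the unlesioned ones, with a log2 fold change of 0.95 (SE 0.10, adjusted p = 0.000108). *Ebf1* was at 3.62, 3.47 and 4.13 CPM without and at 1.94, 1.77 and 2.16 CPM with the lesion. It fell in every lesioned library, with a log2 fold change of -0.94 (SE 0.12, adjusted p = 0.000490). These were the 2 genes called in both lesion comparisons under every alternative that was run for them.

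*Gpr52* was at 8.70, 8.19 and 8.78 CPM in unlesioned and at 6.19, 4.58 and 6.76 CPM in lesioned libraries, with a log2 fold change of -0.55 (SE 0.13, adjusted p = 0.0193). All lesioned libraries were lower and they differed more among themselves than the unlesioned ones. *Slc35d3* was at 9.99, 9.08 and 10.2 CPM in unlesioned and at 7.85, 5.80 and 7.61 CPM in lesioned libraries, a log2 fold change of -0.46 (SE 0.12, adjusted p = 0.0264). Its groups stood apart, but by less than after acute L-DOPA. Leaving out chronic unlesioned replicate 1 or 3 ended both calls (adjusted p of 0.0631 and 0.0726 for *Gpr52*, and 0.0842 and 0.10 for *Slc35d3*), as did the cortical covariate (log2 fold change -0.49, adjusted p = 0.0854 for *Gpr52*, and -0.35, 0.133 for *Slc35d3*) and the scaling to shared genes (-0.44, 0.0517, and -0.34, 0.127). Over all alternatives that kept every library the log2 fold change lay between -0.56 and -0.44 for *Gpr52* and between -0.55 and -0.34 for *Slc35d3*. The *Gpr52* call was also lost without chronic lesioned replicate 1 (0.0502) and with transcripts summed (0.0607), and that of *Slc35d3* without chronic lesioned replicate 2 (0.0505) or 3 (0.0608).

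*Eya1* held 1.12, 1.36 and 1.39 CPM in unlesioned and 0.912, 0.657 and 0.994 CPM in lesioned libraries. No lesioned library reached an unlesioned one, and the log2 fold change of -0.60 (SE 0.17) had an adjusted p of 0.0514, or 0.0172 with the replicate block. It was also called without a filter on low counts (0.0413) and in the fit over all 12 libraries (0.0147). *Sfxn1* held 11.9, 11.8 and 11.8 CPM in unlesioned and 9.87, 8.66 and 11 CPM in lesioned libraries, with a log2 fold change of -0.27 (SE 0.09, adjusted p = 0.10, and 0.0271 with the block). Its unlesioned libraries were almost identical and all above the lesioned ones.

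The remaining 3 genes had overlapping groups after chronic L-DOPA. *Isl1* was at 4.06, 4.47 and 3.07 CPM in unlesioned and at 3.81, 4.69 and 4.16 CPM in lesioned libraries, with a log2 fold change of 0.13 and a 95% interval from -0.18 to 0.45 (adjusted p = 0.616). *Gpr6* was at 21.9, 19.8 and 21.8 CPM and at 22.8, 19.7 and 24.9 CPM, with 0.085 and an interval from -0.13 to 0.30 (adjusted p = 0.642). *Adora2a* was at 65.6, 68.2 and 67.8 CPM and at 60.4, 61.8 and 82.9 CPM, with 0.026 and an interval from -0.23 to 0.28 (adjusted p = 0.919). In *Adora2a*, chronic lesioned replicate 3 alone lay above the unlesioned libraries.

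**Figure D2:**
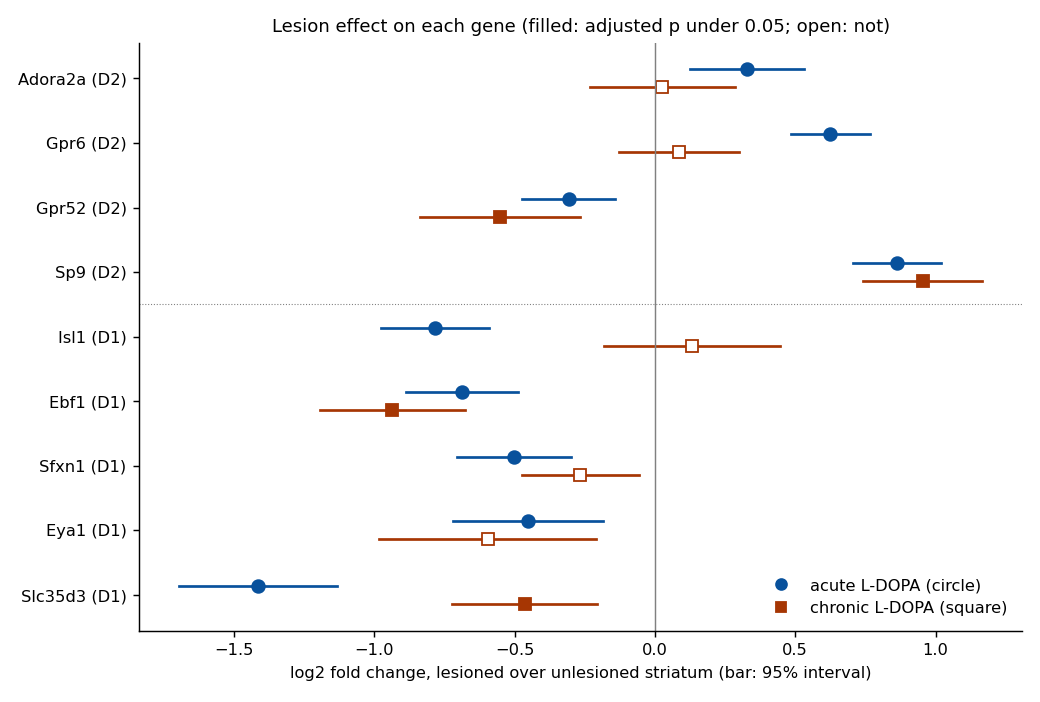
Log2 fold change of the lesioned over the unlesioned striatum (x axis) for each gene (y axis) after acute (circles) and chronic L-DOPA (squares), with 95% intervals as bars and filled symbols for an adjusted p under 0.05. After acute L-DOPA all 5 D1-type genes lie below 0, between -1.41 and -0.45, and after chronic L-DOPA *Isl1* lies at 0.13.

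Whether the lesion effect differed between chronic and acute L-DOPA was tested as an interaction on all 12 libraries. It differed for 3 of the 9 genes, *Isl1*, *Slc35d3* and *Gpr6*, with 4.52% of 130867 transcripts called, 3.22% with a positive and 1.30% with a negative difference. With 1 transcript per gene 5.10% were called. With the replicate block 12.1% of transcripts were called, 6.89% positive and 5.24% negative, and 3 of the 9 genes. Scaled to the shared genes 1.54% were called, 0.964% positive and 0.572% negative, and 2 of the 9 genes. For each of the 3 genes the effect seen after acute L-DOPA was smaller, or near 0, after chronic L-DOPA. The difference, chronic minus acute, was 0.92 for *Isl1* (SE 0.17, adjusted p = 0.00636), 0.95 for *Slc35d3* (SE 0.20, adjusted p = 0.0116) and -0.54 for *Gpr6* (SE 0.12, adjusted p = 0.0183). The *Isl1* call was lost when scaled to the shared genes (0.80, adjusted p = 0.134), and that of *Gpr6* without acute unlesioned replicate 2 (adjusted p = 0.0645) or acute lesioned replicate 2 (0.0581). For the other 6 genes the adjusted p lay between 0.358 and 0.771. The intervals of their differences ran from -0.65 to 0.057 for *Adora2a*, -0.58 to 0.10 for *Gpr52*, -0.16 to 0.35 for *Sp9*, -0.56 to 0.066 for *Ebf1*, -0.067 to 0.54 for *Sfxn1* and -0.60 to 0.32 for *Eya1*.

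Promoter sequence is shown for these 3 genes and for *Sp9*, which was higher in the lesioned striatum after both treatments, so that genes whose lesion effect differed stand beside one whose difference was not called. The sequences are those of RefSeq on GRCm38.p6, from 250 bases before to 50 bases after the gene's start, in the direction of the gene. Capitals mark matches to the motifs searched on both strands: the cAMP response element (CRE) TGACGTCA, its half-site TGACG (also counted inside the full element), the AP-1 site TGANTCA, the Egr site GCGTGGGCG and the GC box GGGCGG. The *Gpr6* window is chr10:41072241-41072540 (minus strand), that of *Isl1* chr13:116309639-116309938 (minus strand), that of *Slc35d3* chr10:19851410-19851709 (minus strand) and that of *Sp9* chr2:73271676-73271975 (plus strand).
Gpr6: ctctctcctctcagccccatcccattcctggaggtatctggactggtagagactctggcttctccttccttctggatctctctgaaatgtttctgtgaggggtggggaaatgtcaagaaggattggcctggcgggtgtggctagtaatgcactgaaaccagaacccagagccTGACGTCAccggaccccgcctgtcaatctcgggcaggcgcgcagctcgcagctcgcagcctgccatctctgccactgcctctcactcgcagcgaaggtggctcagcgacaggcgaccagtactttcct
Isl1: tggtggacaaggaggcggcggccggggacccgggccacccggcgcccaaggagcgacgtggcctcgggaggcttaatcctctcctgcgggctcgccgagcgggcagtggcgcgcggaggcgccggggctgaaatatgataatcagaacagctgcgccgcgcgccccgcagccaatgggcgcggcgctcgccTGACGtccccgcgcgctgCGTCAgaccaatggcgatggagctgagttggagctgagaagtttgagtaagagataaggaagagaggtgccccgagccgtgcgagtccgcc
Slc35d3: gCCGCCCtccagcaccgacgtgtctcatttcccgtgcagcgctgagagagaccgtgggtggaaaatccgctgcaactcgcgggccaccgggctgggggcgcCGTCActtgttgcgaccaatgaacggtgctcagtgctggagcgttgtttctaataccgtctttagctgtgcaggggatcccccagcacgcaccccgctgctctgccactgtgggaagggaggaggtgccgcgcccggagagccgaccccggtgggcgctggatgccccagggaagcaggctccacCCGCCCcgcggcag
Sp9: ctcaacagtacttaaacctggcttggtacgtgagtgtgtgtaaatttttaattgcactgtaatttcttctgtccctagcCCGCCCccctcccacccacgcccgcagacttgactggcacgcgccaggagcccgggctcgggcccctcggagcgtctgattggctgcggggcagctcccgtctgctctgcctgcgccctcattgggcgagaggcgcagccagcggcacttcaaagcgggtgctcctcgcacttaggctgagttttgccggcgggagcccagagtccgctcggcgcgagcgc

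The *Gpr6* window holds a full CRE from 78 to 71 bases before the start. Of the 32851 promoters in the table, 1.79% hold that motif. The *Isl1* window holds the half-site from 59 to 55 and, on the opposite strand, from 41 to 37 bases before the start, and the *Slc35d3* window holds it on the opposite strand from 149 to 145 bases before the start. The half-site is in 20.8% of all promoters. *Slc35d3* has GC boxes from 249 to 244 bases before and from 37 to 42 bases after the start, and *Sp9* has a GC box from 171 to 166 bases before it. That motif is in 35.7% of all promoters. The table holds 7 windows for 6 of the 9 genes, with 2 for *Ebf1* and with *Sfxn1* as the sixth gene. No window was at hand for *Adora2a*, *Gpr52* and *Eya1*. A half-site was in 4 of the 7 windows, a full CRE in 1 and a GC box in 3, while AP-1 and Egr motifs, found in 7.81% and 0.612% of all promoters, were in 0 of the 7. Such matches describe letters in these windows only.

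The lesioned striata of both treatments were then compared directly. This comparison and the next use libraries of the lesion comparisons above and are not independent of them. Of the 9 genes, 4 were called, 2 higher and 2 lower, with 23.3% of 127463 transcripts called, 12.1% higher and 11.2% lower. With 1 transcript per gene 24.8% were called. Scaled to the shared genes 9.64% of transcripts were called, 4.70% higher and 4.94% lower. With single libraries left out the share lay between 12.4% and 28.3%, and 4 or 5 of the 9 genes were called. The libraries did not overlap for 6 of the 9 genes, against 40.3% of transcripts. *Isl1* rose from 1.93 ± 0.052 to 4.22 ± 0.45 CPM (SD, n = 3), by 1.13 on the log2 scale (SE 0.11, adjusted p = 5.92e-05), and *Slc35d3* from 4.12 ± 0.83 to 7.09 ± 1.12 CPM, by 0.79 (SE 0.15, adjusted p = 0.00515). *Gpr6* fell from 35.0 ± 1.25 to 22.5 ± 2.65 CPM, with a log2 fold change of -0.64 (SE 0.09, adjusted p = 0.000908), and *Adora2a* from 103 ± 2.57 to 68.4 ± 12.6 CPM, with -0.60 (SE 0.11, adjusted p = 0.00446). So 2 of the 5 D1-type genes were higher and 2 of the 4 D2-type genes lower after chronic L-DOPA. *Sp9* stood at 10.2 ± 0.70 and 10.3 ± 0.14 CPM, with a log2 fold change of 0.012 and an interval from -0.16 to 0.18. The log2 fold change of *Gpr52* was -0.37 (adjusted p = 0.0701), and reached the threshold without chronic lesioned replicate 3 (-0.49, adjusted p = 0.0394) and in the fit over all 12 libraries (adjusted p = 0.0286).

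In the unlesioned striatum the same comparison called 1 of the 9 genes, *Sfxn1*, with 2.61% of 129187 transcripts called, 0.968% higher and 1.64% lower. That share rested on single libraries. In place of 3366 transcripts, 82, 66 and 740 were called without acute unlesioned replicate 1, 2 or 3, and 775, 14377 and 402 without chronic unlesioned replicate 1, 2 or 3. Scaled to the shared genes the share was 1.39%, 1.02% higher and 0.370% lower. With 1 transcript per gene it was 2.69%. Libraries did not overlap for 3 of the 9 genes (*Adora2a*, *Gpr52* and *Sfxn1*), against 26.2% of transcripts. *Sfxn1* was lower after chronic L-DOPA, at 11.8 ± 0.064 CPM against 15.5 ± 1.44 CPM after acute L-DOPA, with a log2 fold change of -0.39 (SE 0.08, adjusted p = 0.0302). That call held without chronic unlesioned replicate 2 (adjusted p = 0.0126) and was lost without any other library of the comparison, with adjusted p from 0.0528 to 0.137. Of the 10 *Sfxn1* transcripts 5 were lower in this comparison. A shorter *Sfxn1* transcript with 11 exons, ending at 54202132, was not called (log2 fold change -0.086, adjusted p = 0.693). The other 8 genes had log2 fold changes between -0.30 (*Adora2a*) and 0.21 (*Isl1*).

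As a description of the set, the log2 levels were averaged over the 5 D1-type and over the 4 D2-type genes in each library, without a test. The D1-type mean minus the D2-type mean was -1.81 ± 0.07 (SD, n = 3) in the acute unlesioned and -1.76 ± 0.08 in the chronic unlesioned libraries. It was -2.93 ± 0.03 in the acute lesioned and -2.29 ± 0.04 in the chronic lesioned libraries. The 6 unlesioned libraries lay together between -1.87 and -1.66, and the lesioned groups formed separate ranges below them. After acute L-DOPA both means moved, the D1-type mean from 2.35 to 1.6 and the D2-type mean from 4.16 to 4.53. After chronic L-DOPA the D1-type mean was 2.25 and 1.84, while the D2-type libraries of both sides overlapped.

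**Figure D3:**
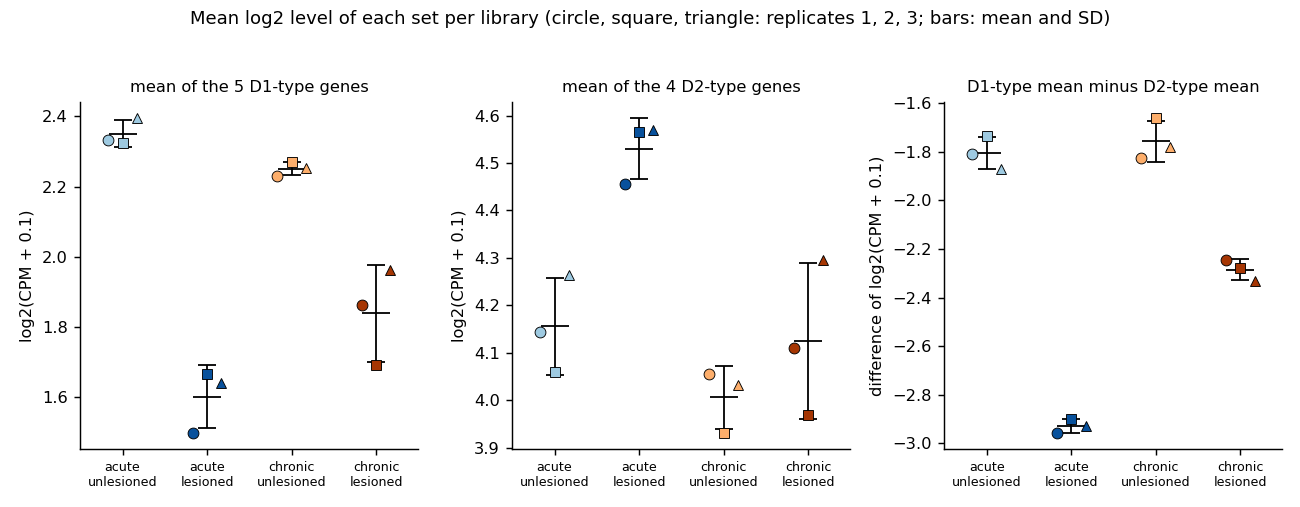
Mean of log2(CPM + 0.1) over the 5 D1-type genes (left), over the 4 D2-type genes (middle) and their difference (right) for each library (symbols as replicates 1 to 3) in the 4 groups, with mean and SD (n = 3) as bars. The axes do not start at 0 because the values are logs. The difference is lowest in the acute lesioned libraries, between -2.96 and -2.90, and lies between -2.33 and -2.25 in the chronic lesioned libraries.

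Genes that both types share were read from a list. After acute L-DOPA, 9 of the 16 were lower on the lesioned side and 0 higher, with a median log2 fold change of -0.29. Among them *Pde10a*, a phosphodiesterase of spiny neurons, was at -0.48 and *Rarb*, a retinoic acid receptor, at -0.46. After chronic L-DOPA, 1 of the 16 was lower (*Rasd2*, -0.56, adjusted p = 0.0123), and 8 were called with the replicate block. Scaled to these 16 genes in each comparison, the direction of every member called in a lesion comparison stayed as given above.

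Further genes of the types were described from lists. Of 6 other D1-type genes, 3 were lower and 0 higher with the lesion after acute L-DOPA, with a median of -0.40. *Chrm4*, the muscarinic M4 receptor, changed most, from 30.7 ± 2.42 to 9.18 ± 1.34 CPM with a log2 fold change of -1.74 (SE 0.10, adjusted p = 2.41e-07). *Accn4* (also *Asic4*), an ion channel subunit, was at -0.71 and *Ddit4l*, an inhibitor of mTOR signalling, at -0.61. After chronic L-DOPA these 3 were again lower, *Ddit4l* most with -1.79 (SE 0.18, adjusted p = 8.81e-05), and *Mn1* was higher (0.38, adjusted p = 0.0344). The difference between the lesion effects was called for 3 of the 6, and its sign differed: 1.15 for *Chrm4* (adjusted p = 0.00103), 0.58 for *Mn1* (0.0336) and -1.18 for *Ddit4l* (0.00316).

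Of 8 other D2-type genes, 0 were called after acute L-DOPA by edgeR's test, 2 with the replicate block, and the median was 0.08. DESeq2 called 0 as well, and 3 of the 8 had an unadjusted p under 0.05. *Ptprm*, a receptor phosphatase, had the lowest adjusted p (log2 fold change 0.21, adjusted p = 0.0697). After chronic L-DOPA 3 were lower and 1 higher. *Plxdc1*, a membrane protein, went from 4.12 ± 0.21 to 1.66 ± 0.05 CPM (log2 fold change -1.31, SE 0.10, adjusted p = 1.32e-05). *Upb1* was at -0.88 and *Grik3*, a kainate receptor subunit, at -0.85, and *P2ry1*, a purine receptor, at 0.90. The lesion effect differed between the treatments for *Grik3* (-0.90, adjusted p = 0.00185) and *Plxdc1* (-1.04, adjusted p = 0.000504), both lower after chronic L-DOPA.

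**Figure D4:**
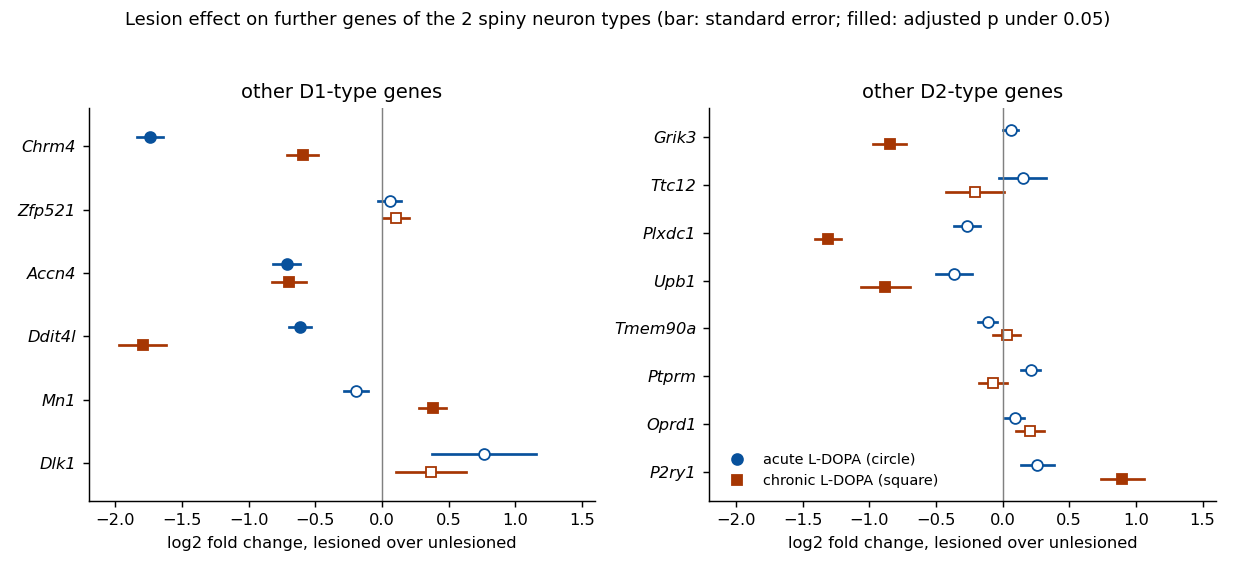
Log2 fold change of the lesioned over the unlesioned striatum (x axis) for the 6 other D1-type genes (left) and the 8 other D2-type genes (right) after acute (circles) and chronic L-DOPA (squares), with the SE as bars and filled symbols for an adjusted p under 0.05. *Chrm4* lies at -1.74 and -0.59, and the 8 D2-type genes are open after acute L-DOPA.

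The dopamine receptors and peptides left out of the 9 genes moved in both directions within a type. Of the 5, *Drd2*, *Penk* and *Tac1* were higher and *Drd1a* and *Pdyn* lower after acute L-DOPA, although *Tac1* and *Pdyn* belong to D1-type neurons. After chronic L-DOPA, *Pdyn* had a log2 fold change of 2.50 (SE 0.15), with *Tac1* and *Penk* also higher and *Drd1a* lower. Among 15 tested transcription factors of the striatal lineages, 3 were higher after acute L-DOPA (*Sp8*, *Dlx1* and *Dlx2*) and 3 lower (*Zfp503*, *Foxp2* and *Rxrg*). *Sp8*, the relative of *Sp9*, was highest with 1.5 (SE 0.41, adjusted p = 0.0317). After chronic L-DOPA *Six3*, a homeodomain factor of the D2 lineage, was higher (0.47, adjusted p = 0.00997), and *Zfp503* and *Foxp2* were lower. With the replicate block 7 of the 15 were called after acute and 7 after chronic L-DOPA.

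Markers of other cells were read beside these results. *Isl1* is also a gene of cholinergic interneurons. Of 7 of their markers, 0 were called after acute L-DOPA by edgeR and by DESeq2 (1 had an unadjusted p under 0.05, and 1 was called with the replicate block), with a median of 0.17, and their summed level was 24.4 to 29.2 CPM in the unlesioned and 26.8 to 33.5 CPM in the lesioned libraries. In the chronic lesion comparison 1 of the 7 was lower (*Slc5a7*, -0.35, adjusted p = 0.0305), 2 were called by DESeq2 and 4 with the replicate block, with a median of -0.31 and sums of 24.8 to 30.9 CPM in unlesioned and 21.7 to 25.6 CPM in lesioned libraries. In the interaction, where the difference of *Isl1* was positive, 2 of the 7 had a negative one (*Slc5a7*, -0.51, adjusted p = 0.0458, and *Lhx8*, -0.84, adjusted p = 0.0492). Of all transcripts tested there, 1.30% were called with a negative difference. Between the lesioned striata, where *Isl1* was higher after chronic L-DOPA, 3 of the 7 were lower, among them *Chat* (-0.33, adjusted p = 0.0344) and *Slc5a7* (-0.48, adjusted p = 0.00767). Of all transcripts, 11.2% were called lower in that comparison. For the mural cells, which express *Ebf1*, 1 of 7 markers was higher after acute and 0 were called after chronic L-DOPA by edgeR or DESeq2, with 0 at an unadjusted p under 0.05. The medians were 0.20 and -0.040 and the sums of 33.1 to 40.2 and 38.5 to 44.9 CPM after acute and of 25.1 to 33.2 and 26.0 to 36 CPM after chronic L-DOPA, unlesioned and lesioned.

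Cortical glutamatergic markers varied widely between libraries. Their 9 genes summed to 18.1 to 36.7 CPM in acute unlesioned, 8.45 to 22.9 CPM in acute lesioned, 11.2 to 48.4 CPM in chronic unlesioned and 6.59 to 28.0 CPM in chronic lesioned libraries, with 1 higher and 1 lower after acute L-DOPA and a median log2 fold change of -1.11. After chronic L-DOPA 0 of the 8 tested were called by edgeR or DESeq2, with 1 at an unadjusted p under 0.05 and a median of -1.49. Oligodendrocyte markers summed to 2144 to 2390 CPM in acute unlesioned and 2175 to 3588 CPM in acute lesioned libraries, with 2 of 8 higher, and to 1200 to 2161 CPM in chronic lesioned libraries, with 8 of 8 lower than in acute lesioned ones by edgeR and 2 by DESeq2. Of 8 microglial markers 4 were higher with the acute treatment. With the chronic treatment edgeR and DESeq2 called 0 of them, and 0 had an unadjusted p under 0.05. Of 7 astrocyte markers 2 were higher with the acute treatment (*Gfap* and *Gja1*), 5 with the block, and 1 with the chronic treatment (*Gfap*), 2 with the block. *Gfap*, the filament protein of reactive astrocytes, went from 16.4 ± 1.24 to 38.6 ± 11.1 CPM after acute and from 14.1 ± 4.76 to 54.8 ± 14.9 CPM after chronic L-DOPA, and the 7 markers summed to 535 to 597 and 597 to 771 CPM after acute and to 527 to 618 and 626 to 655 CPM after chronic L-DOPA, unlesioned and lesioned. Of 7 markers of other striatal interneurons, 0 were called after acute L-DOPA by edgeR or DESeq2, with 2 at an unadjusted p under 0.05 and 2 called with the block. With the chronic treatment 3 were higher (*Th*, *Npy* and *Sst*) and 2 lower (*Nos1* and *Kit*), 6 were called with the block, and their sum was 77.0 to 90.2 CPM in unlesioned and 94.3 to 107 CPM in lesioned libraries. The replicate block raised the counts called to 8 of 9 cortical, 7 of 8 oligodendrocyte and 6 of 8 microglial markers after acute L-DOPA, and to 4 of 8 cortical and 4 of 8 oligodendrocyte markers with the chronic treatment. Between the lesioned striata, where *Gpr6* and *Adora2a* were lower after chronic L-DOPA, 6 of 8 microglial, 4 of 7 astrocyte and 4 of 7 mural markers were lower. The share over all transcripts was 11.2%. Between the unlesioned striata, where *Sfxn1* was lower, 3 of 8 microglial (median -0.47), 2 of 7 astrocyte and 1 of 7 mural markers were lower, against 1.64% of all transcripts. Of 7 endothelial markers 0 were called in either lesion comparison by edgeR or DESeq2, with 1 after acute and 0 after chronic L-DOPA at an unadjusted p under 0.05, and 2 and 1 called with the block. Of 5 tested markers of choroid plexus and ependyma 1 was higher after acute L-DOPA (*Foxj1*, a factor of ciliated cells, from 2.17 ± 0.87 to 4.51 ± 1.09 CPM), with a median of 1.07 and sums of 5.06 to 8.78 CPM in unlesioned and 7.55 to 12.1 CPM in lesioned libraries. With the chronic treatment 0 of 4 tested were called by edgeR or DESeq2, with 0 at an unadjusted p under 0.05 and sums of 9.18 to 23.5 and 10.7 to 12.5 CPM, the highest in chronic unlesioned replicate 2. The part of these cells in the changes of the 9 genes was not tested, other than by the cortical covariate given above.

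The other transcripts of each gene were read beside the main one. All 4 *Slc35d3* transcripts were lower in both lesion comparisons, and both *Gpr6* transcripts were called higher after acute L-DOPA and neither with the chronic treatment. Of the 5 *Sp9* transcripts, 4 were higher in both comparisons. The other, which starts beyond the end of the main transcript, had 0.38 and -0.54 and was not called. A cDNA clone on the opposite strand of *Sp9* had log2 fold changes of 0.59 and 1.03, and reads of the 2 strands cannot be told apart if the counting did not use the strand. *Ebf1* had 27 transcripts, of which 22 were tested in each lesion comparison, 16 were lower in each and 0 were higher. Of the 5 *Isl1* transcripts, 3 were lower after acute L-DOPA, and the chronic log2 fold changes ran from -0.057 to 0.56 with 0 called. All 5 had a positive difference between the lesion effects, from 0.60 to 1.03, which was called for 2 of them, including the main one, and had adjusted p of 0.107, 0.0650 and 0.108 for the other 3. Of the 10 *Eya1* transcripts, 4 were lower after acute and 2 with the chronic treatment, and all 10 had negative log2 fold changes in both. Transcripts of 1 gene share reads, so these are not independent.

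The transcripts of *Sfxn1* differed more from each other. After acute L-DOPA 5 of its 10 transcripts were lower, and these were the ones that reach beyond position 54202132. The next pair was chosen after its values were seen and is given as a description. A transcript with 11 exons ending at 54202132 had a log2 fold change of -0.17 (adjusted p = 0.379), and a clone of a single exon from 54201965 to 54203434 had -0.64 (adjusted p = 0.00188). The ratio of counts, clone over transcript, was 2.53, 2.10 and 2.25 in the acute unlesioned and 1.6, 1.76 and 1.57 in the acute lesioned libraries. It was 1.79, 1.71 and 1.63 in the chronic unlesioned and 1.49, 1.61 and 1.34 in the chronic lesioned libraries. Only the acute unlesioned libraries were above 2. A pair of overlapping clones on opposite strands of *Sfxn1* had nearly equal counts in each library, for example 98 and 97 in acute unlesioned replicate 1 and 112 and 116 in chronic unlesioned replicate 3.

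**Figure D5:**
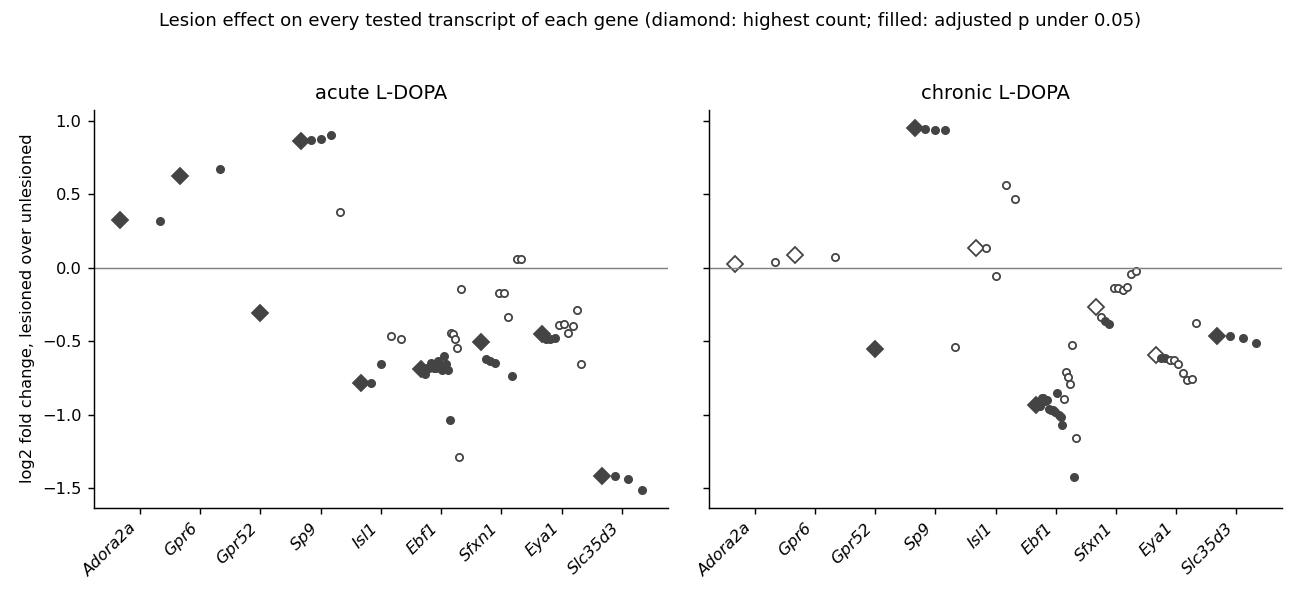
Log2 fold change of the lesioned over the unlesioned striatum (y axis) for every tested transcript of each gene (x axis) after acute (left) and chronic L-DOPA (right), with the transcript of the highest count as a diamond and filled symbols for an adjusted p under 0.05. The 22 *Ebf1* transcripts all lie below 0 in both panels, whereas the *Sfxn1* transcripts spread from -0.74 to 0.06 after acute L-DOPA.

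Compared per kb of transcript, the genes covered a wide range of levels. In the acute unlesioned striatum the order was *Adora2a* (32.6 ± 5.28 CPM per kb), *Gpr6* (12.8 ± 0.90), *Gpr52* (8.61 ± 0.39), *Sfxn1* (5.5 ± 0.51), *Slc35d3* (4.17 ± 0.50), *Isl1* (1.32 ± 0.08), *Sp9* (1.25 ± 0.07), *Ebf1* (0.631 ± 0.051) and *Eya1* (0.33 ± 0.041). The libraries of *Isl1* and *Sp9* overlapped, and those of the other neighbours did not. In the acute lesioned striatum *Sp9* (2.26 ± 0.16 CPM per kb) stood above *Slc35d3* (1.57 ± 0.32) and *Isl1* (0.763 ± 0.021), with no overlap between neighbours. In the chronic lesioned striatum *Slc35d3* (2.70 ± 0.43 CPM per kb) and *Sp9* (2.28 ± 0.03) overlapped and *Isl1* (1.67 ± 0.18) came next. The first 4 places and the last 2 were held by the same genes in all 4 groups.

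The genes whose log2 levels were most like a member's over the 12 libraries were sought among 12795 genes, as a description in which libraries of a group share their group's changes. *Chrm4* (Pearson r 0.99) and *Dok4* (0.98) were most like *Slc35d3*, and *Egr3* (0.99) and *Arid3b* (0.98) most like *Sp9*. *Fem1c* (0.96) and *Eif2b5* (0.95) were most like *Isl1*, and *Stc1* (0.98) and the gene listed as B830032F12 (0.97) most like *Ebf1*. For *Adora2a* these were *H2afj* (0.97) and *Sh2b3* (0.96), for *Gpr6* *Sap18* (0.96) and *Arl4d* (0.96), for *Gpr52* the gene listed as N28178 (0.98) and a cDNA clone without a gene name (0.97), for *Sfxn1* *Srpk1* (0.93) and *Ftsj2* (0.93), and for *Eya1* *Kctd1* (0.93) and *Mtif3* (0.93). Among the members themselves, *Adora2a* and *Gpr6* had r = 0.87, *Gpr52* and *Ebf1* 0.87, *Gpr52* and *Eya1* 0.88, *Sp9* and *Ebf1* -0.93, and *Gpr6* and *Isl1* -0.91. *Gpr52*, a D2-type gene, also had r = 0.86 with *Sfxn1*, 0.52 with *Slc35d3* and -0.21 with *Isl1* of the D1 type, and 0.27 with *Adora2a*, 0.044 with *Gpr6* and -0.70 with *Sp9* of its own type.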

How the data were processed

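Striatal RNA (TruSeq libraries, Genome Analyzer II) was mapped by the authors to mm9 with the Genomatix Mining Station and counted over 189660 transcripts. The deposited read counts per transcript are not normalized. Settings for strand and for reads with several matches are not given in the sources used here. The authors' normalized expression, a signal scaled by transcript length and library size, was read only to check the counts. Their comparison tables (log2 fold changes and p-values from DESeq) were not used, nor were 36 per-library columns there that name no sample. Another 296 transcripts without a gene name, 0.0485% of counts, were left out.

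Groups follow the labels. Transcripts were tested with edgeR 4.0.16 (quasi-likelihood, filterByExpr, TMM, R 4.3.3) on the 6 libraries compared, or on all 12 for the interaction, with Benjamini-Hochberg adjustment over all transcripts tested and a threshold of 0.05. Standard errors are the log2 fold change divided by the root of F. CPM used TMM-scaled totals over 12 libraries, and a log offset of 0.1. An exact permutation test of 3 against 3 cannot go below p = 0.10, so none was used. Intervals cover the spread between these libraries, which may be partly technical. Tables and plots were made with Python 3.11.15, pandas 2.3.3 and matplotlib 3.10.9.

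Libraries with the same replicate number deviated together across sides (correlation 0.473, 0.466 and 0.385 after acute and 0.515, 0.571 and 0.158 after chronic L-DOPA, all above 0.1), and the study treats the sides as those of 1 mouse, so the numbers were taken to pair the libraries. Pairs with different numbers lay between -0.295 and -0.128 after acute and between -0.514 and 0.153 after chronic L-DOPA, where unlesioned replicate 3 correlated about as well with lesioned replicate 1 (0.153) as with its own number. The main tests have no replicate block. Whether the study's tests had one is not given in the sources used here. On simulated counts with 200 changed transcripts, 147 were recovered in the acute comparison, on 129674 transcripts, with 5.77% false among those called, and 104 in the interaction, on 130867 transcripts, with 5.45% false. The simulation drew transcripts independently, with a single dispersion and no replicate pairs, and changed only well-counted ones. These shares are therefore not error rates of the real calls.

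All 9 genes are named, and from the lists those with the largest changes or that a result turns on. The members and the lists were chosen with earlier results of these data known. Alternatives were DESeq2 1.42.0, its size factors, no filter, 1 transcript per gene, summed transcripts, all 12 libraries in 1 fit, the replicate block, scaling to shared spiny neuron genes, a cortical covariate, a threshold of 0.01 and leaving out each library. Removing a trend with GC content and length, which 8 of the 9 genes have a value for (*Gpr52* has none), was added after seeing the data.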

Additional observations from a re-analysis of the deposited data

Results flagged for a closer look

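For 3 of the 9 genes the lesion effect differed between chronic and acute L-DOPA by the interaction test over all 12 libraries (edgeR). For *Isl1* the difference on the log2 scale was 0.92, with a 95% interval from 0.55 to 1.29. The lesioned libraries were lower than the unlesioned ones after acute L-DOPA in 3 of 3 replicate pairs, and both groups overlapped after chronic L-DOPA. The adjusted p was 0.00636, 0.000656 with the replicate block, from 0.00178 to 0.0220 when single libraries were left out, and up to 0.134 under the other alternatives.

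For *Slc35d3* the difference was 0.95, with an interval from 0.53 to 1.37. It was lower in the lesioned striatum in 3 of 3 replicate pairs after either treatment. The adjusted p was 0.0116, 0.000281 with the block, and at most 0.0380 with any library left out. For *Gpr6* it was -0.54, with an interval from -0.79 to -0.28. It was higher in the lesioned striatum in 3 of 3 replicate pairs after acute L-DOPA, and the groups overlapped after chronic L-DOPA. Its adjusted p was 0.0183, 0.00184 with the block, and 0.00805 to 0.0645 with single libraries left out, past 0.05 without acute unlesioned replicate 2 and without acute lesioned replicate 2.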

How the results depend on the processing

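Of 829 values of single genes under the alternatives, 746 kept their direction and their side of the threshold, 56 lost a call, 8 gained one and 19 changed direction, the last in 0 called genes. The number of the 9 genes called after chronic L-DOPA, 4, fell to 2 at a threshold of 0.01, with scaling to shared spiny neuron genes and with the cortical covariate, and lay between 2 and 4 with single libraries left out. The share of all transcripts fell too, from 12.0% to 5.57% at 0.01, 8.16% with the scaling and 8.14% with the covariate. In the unlesioned comparison the count of 1 fell to 0 at 0.01, with summed transcripts, in the fit over all 12 libraries and with scaling to shared genes (0.0836%, 0.470%, 2.97% and 1.39% of all features, against 2.61%), and lay between 0 and 1 with single libraries left out. For the interaction it fell from 3 to 1 at 0.01, where the share of all transcripts fell from 4.52% to 1.89%. After acute L-DOPA it lay between 6 and 9 over all alternatives, with 5.17% of all transcripts called at 0.01 in place of 12.9%.

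Changes of direction were in differences near 0. After chronic L-DOPA *Adora2a* was at -0.086 with the cortical covariate, -0.088 with the GC and length trend removed and -0.097 with the replicate block as well, and between -0.13 and 0.11 with single libraries left out. *Gpr6* was at -0.0047 and -0.0078 with that trend removed, without and with the block. *Isl1* was at -0.068 with the cortical covariate and between -0.014 and 0.25 with single libraries left out. Between the lesioned striata *Sp9* was at -0.028 with scaling to shared genes and between -0.044 and 0.046 with single libraries left out. Between the unlesioned striata *Ebf1* was at 0.0025 with 1 transcript per gene, 0.0058 with summed transcripts, 0.062 with scaling to shared genes and between -0.087 and 0.039 with single libraries left out. In the interaction *Sp9* was at -0.016 with scaling to shared genes, and *Eya1* between -0.28 and 0.027 with single libraries left out. The causes were not tested.

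With the replicate block, which pairs the sides, 28237 transcripts were called in place of 16684 after acute L-DOPA, 27505 in place of 15295 after chronic L-DOPA and 15879 in place of 5911 in the interaction. Among the 9 genes the block changed only the calls of *Eya1* and *Sfxn1* after chronic L-DOPA. *Eya1* had the fewest counts, 71 to 283 per library. In the acute comparison the order of the standard errors was not that of the counts. With scaling to shared genes, 9.64% of transcripts were called between the lesioned striata and 1.54% in the interaction, in place of 23.3% and 4.52%. With single libraries left out, the share called lay between 7.25% (without acute unlesioned replicate 3) and 11.7% after acute, between 7.10% (without chronic unlesioned replicate 3) and 11.5% after chronic L-DOPA, between 12.4% (without chronic lesioned replicate 1) and 28.3% (without chronic lesioned replicate 2) in the lesioned striata, and between 2.87% (without acute unlesioned replicate 3) and 7.21% (without chronic lesioned replicate 2) in the interaction.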
